A study of Danio rerio with 17 samples.

Results

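The genes that encode the receptors for acetylcholine, serotonin, dopamine, noradrenaline and adrenaline were followed through the cells of the larval zebrafish optic tectum, the largest visual centre of the fish brain. The members were all genes whose name in the deposited gene table starts as that of a muscarinic (*chrm*), nicotinic (*chrna*, *chrnb*, *chrnd*, *chrne*, *chrng*), serotonin (*htr*), dopamine (*drd*) or adrenergic (*adra*, *adrb*) receptor gene. This naming rule gave 77 of the 25432 genes in the table, of which 8 are muscarinic, 22 nicotinic, 21 serotonin, 11 dopamine and 15 adrenergic receptor genes. No measured value entered the choice of members, and no member was used to assign cells to classes.

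Acetylcholine acts on ion channels, the nicotinic receptors, and on slower receptors coupled to G proteins, the muscarinic receptors. Dopamine, noradrenaline and adrenaline act on G protein-coupled receptors alone, and serotonin acts on G protein-coupled receptors and on the *htr3* ion channels. The coupling decides the first step inside the cell: Gq raises calcium through phospholipase C, Gi lowers cyclic AMP and opens potassium channels, and Gs raises cyclic AMP. The tectum receives cholinergic fibres from the isthmic region and monoaminergic fibres from the brainstem and hypothalamus, and in vertebrates these inputs are known to change how neurons and glia respond to vision.

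Both tectal hemispheres were dissected together with the torus longitudinalis from untreated wild-type larvae, dissociated with papain and sequenced with 10x Chromium Single Cell 3′ v3 chemistry. The batches were 11 dissection sessions, each pooling the tecta of many larvae, with 4 batches at 6 days post fertilization (dpf; batches 5, 6, 7 and 10) and 7 at 7 dpf (batches 1 to 4, 8, 11 and 12). All groups shared genotype and treatment, so the comparisons lie between cell classes of the same batches and between the 2 ages. Of 87881 barcodes, 53173 held 600 to 4000 genes, at most 7500 UMIs (unique molecular identifiers, each standing for 1 captured transcript) and at most 10% mitochondrial UMIs, with 815 to 14524 of them per batch.

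Classes were set by how many genes of a marker list had a UMI in a barcode, and the class names below stand for barcodes that met these limits. The neuron limit (at least 4 of 12 markers) held 40082 barcodes. These also met no other limit and had at most 3 radial glia markers, 1 cycling marker and 2 markers of each other class. Neurons with *slc17a6a* or *slc17a6b*, the vesicular glutamate transporters, and no *gad1b* were called glutamatergic (9432 barcodes), and those with *gad1b*, which makes GABA, and neither transporter were called GABAergic (9386 barcodes). Neurons with a UMI of *chata* or *slc18a3a*, which make and load acetylcholine, were called cholinergic (1800 barcodes). Another 17050 neurons had no UMI of these genes and 2414 had those of both main transmitters, and they were in no transmitter class. The GABA genes *gad2* and *slc32a1*, not used to assign classes, were in 60.7% and 60.6% of GABAergic barcodes. They were also in 19.5% and 14.4% of glutamatergic barcodes, and the source of these transcripts was not tested. The radial glia limit held 1359 barcodes, with at least 20 in 7 batches. The glial genes *slc1a2b* and *cx43*, which are markers of that limit, were found in 98.4% and 86.3% of these barcodes. Of 8 glial genes not used to assign the class, the median radial glia barcode held 6 and the median neuron 0. In radial glia these 8 genes summed to 59.1 to 223 UMIs per 10000 over the 7 batches, and the markers of the limit to 128 to 806. The class thus varied between batches. The oligodendrocyte lineage limit held 241 barcodes, with its marker *olig2* in 94.2%. Of 6 lineage genes not used to assign the class, the median barcode held 1, and *mag* was in 7.05% against 13.7% of radial glia. In the same class *elavl3*, a neuronal gene, was in 80.1% and *slc1a2b* in 75.1% of barcodes, so transcripts of marker genes of other classes were present. Their source was not tested. Microglia (195 barcodes, *apoc1* in 99.5%) and erythrocytes (179 barcodes, *hbbe1.1* in 99.4%) held *gad1b* in 15.4% and 14% of barcodes and were taken as the gauge of free RNA. Of 6 microglial genes not used to assign the class, the median microglia barcode held 4, and erythrocytes had no such list. The shares of *slc1a2b* and *cx43* in radial glia and of *olig2*, *apoc1* and *hbbe1.1* in their classes follow in part from the limits themselves. The limits cut within a range of marker counts. Of all 53173 barcodes, whatever their class, 5563 had exactly 4 neuron markers and 4015 had 1 fewer.

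Batches 10 to 12 were set apart from batches 1 to 8. The study's methods give a HiSeq machine for batches 1 to 8 and a NovaSeq machine for the last batches, which the methods number differently from the sample labels. Batches 10 to 12 were taken as the NovaSeq batches by elimination. They held 30552 of the 53173 barcodes, or 57.5%, and batch 10 kept 14524 of its 36546 barcodes. The comparisons of GABAergic with glutamatergic, cholinergic, radial glial and cycling cells were also run in each set alone. Levels are UMIs of a gene per 10000 UMIs of all genes in a class and batch. They compare 1 gene between cells. Between genes they also depend on how well the annotation covers the 3′ end, though not on transcript length.

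Of the 77 members, 34 had a UMI in at least 1% of neurons, 11 in at least 5% and 3 in at least 10%. The other 43 were found in 0.00748% to 0.985% of neurons, with 4 to 450 UMIs in all 40082 barcodes, and none was at 0. When each barcode was thinned to 1000 UMIs, 22 members remained at or above 1%, and 14 had at least 2 UMIs in 1% of neurons. At 1000 UMIs all of these 34 members had a higher share in neurons than in microglia and erythrocytes, and for 29 of them the share was more than 2 times as high. The exceptions were *htr2aa*, *htr3a*, *adra2c*, *drd2l* and *adra2da*. These 34 members were picked by their share in neurons, which favours neurons in this comparison, so it is given as a description. Members below 1% of neurons went both ways after thinning, for example *adrb2a* (0.291% against 11.7%) and *htr2ab* (0.338% against 0). Microglia and erythrocytes together held 374 barcodes, of which 6 were too shallow to thin, so small shares in them rest on few barcodes. For example, *htr4*, *drd3* and *chrna2b* had a thinned share of 0 there, and *chrna6* and *htr1d* of 0.272%. Without thinning, *drd2l* (1.38% against 1.6%) and *chrna2a* (1.21% against 1.34%) had a lower share in neurons.

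**Figure D1:**
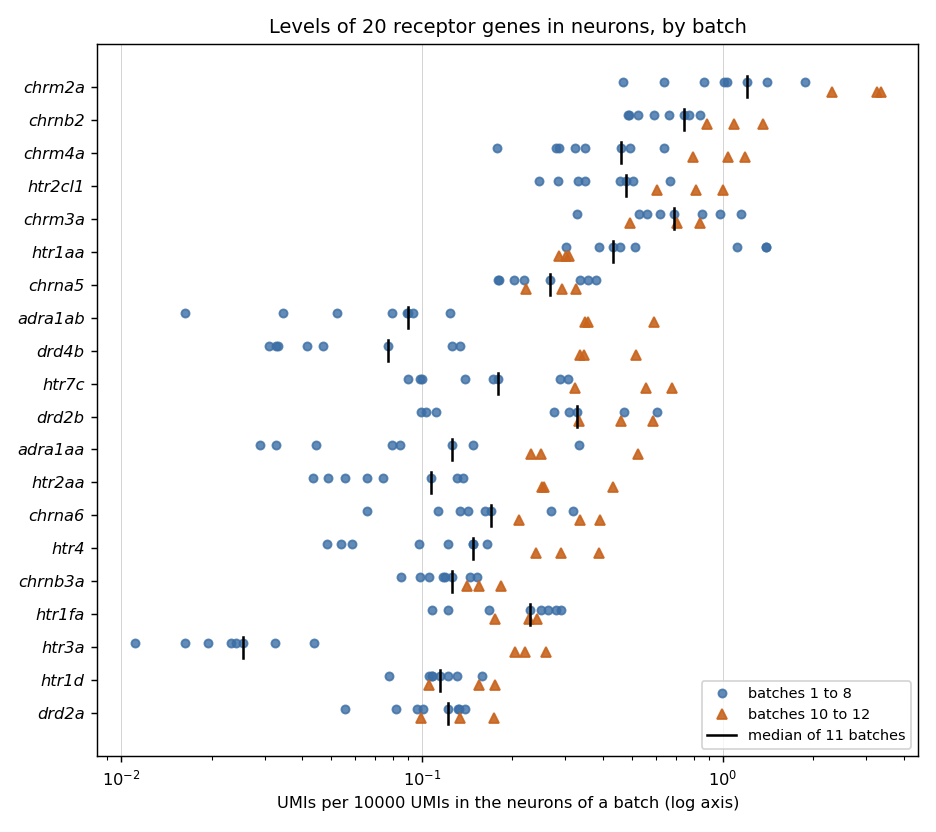
UMIs per 10000 UMIs in neurons (log axis) of the 20 members with the highest share of neurons, with 1 point a batch, circles for batches 1 to 8, triangles for batches 10 to 12 and a tick at the median. *chrm2a*, *chrnb2* and *chrm3a* have the highest medians, while *adra1ab*, *drd4b*, *htr2aa* and *htr3a* split between the 2 sets of batches.

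The muscarinic receptor genes led the list. *chrm2a*, whose mammalian counterpart encodes the Gi-coupled M2 receptor, was found in 20.2% of neurons and in 13.1% after thinning, against 5.98% of thinned microglia and erythrocytes. Its level was 0.467 in the lowest batch, 1.2 in the median batch and 3.36 in the highest. *chrm4a*, for the Gi-coupled M4 receptor, was in 12.9% of neurons (lowest 0.178, median 0.458, highest 1.19). *chrm3a*, for the Gq-coupled M3 receptor, was in 7.39% of neurons (lowest 0.327, median 0.689, highest 1.15). In pooled neurons the 3 Gi-coupled muscarinic genes together reached 3.25 UMIs per 10000 and the 5 Gq-coupled genes 0.652, and *chrm2a* and *chrm3a* supplied most of each sum. In the median batch *chrm2a* and *chrm3a* differed by less than the spread of *chrm2a* between batches.

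Of the 22 nicotinic genes, 9 reached 1% of neurons. *chrnb2*, the β2 subunit that forms channels with α4 or α6 in mammals, was in 17.9% of neurons and 8.43% after thinning, against 1.63% of thinned microglia and erythrocytes (lowest 0.485, median 0.742, highest 1.36). *chrna5*, an accessory subunit, was in 6.03% (lowest 0.179, median 0.267, highest 0.380). *chrna6*, a subunit that in mammals marks dopamine neurons and the visual pathway, was in 4.26% (lowest 0.0655, median 0.169, highest 0.392). *chrnb3a*, whose mammalian counterpart joins α6 channels, was in 3.38%, and *chrna2b*, a relative of the α2 subunit, in 2.28%. The ranges of *chrna6*, *chrnb3a* and *chrna2b* over batches overlapped.

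Subunits that share channels in mammals were also compared cell by cell. *chrna6* and *chrnb3a* were found together in 197 neurons, where independent detection within 5 depth strata of each batch gives 69.7, a ratio of 2.83 that was above 1 in all 6 batches with at least 1 expected cell. *chrna6* and *chrnb2* were together in 462 neurons against 376 (ratio 1.23, above 1 in 9 of 9 batches). *chrna2b* and *chrnb2* met in 197 neurons against 191, and *chrna4a* and *chrnb2* in 118 against 136, where 2 of 8 batches were above 1. Depth still varies within a stratum, and these ratios are given as a description without a test. The strata did not separate transmitter classes, and *chrna6* and *chrnb3a* were both higher in GABAergic than in glutamatergic neurons, as given below. The part of transmitter class in these ratios was not tested.

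The subunits of the muscle receptor were near the lower end. *chrnb1* was in 0.721% of neurons, *chrna1* in 0.636%, *chrne* in 0.334%, *chrng* in 0.317% and *chrnd* in 0.0474%. None of these 5 passed 1% in neurons, while the ganglionic subunit genes *chrna3* and *chrnb4*, named here after their values were seen, were detected in 18 and 34 neurons.

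Serotonin receptor genes of all 4 modes of coupling were detected. *htr2cl1*, a Gq-coupled 2C receptor gene, was in 7.53% of neurons (lowest 0.245, median 0.478, highest 1.00). *htr1aa*, for the Gi-coupled 1A receptor, was in 6.74% (lowest 0.286, median 0.433, highest 1.39), and batches 1, 2 and 4 with 1.39, 1.39 and 1.11 were far above the other 8. The Gs-coupled *htr7c* and *htr4* were in 5.67% and 3.96% of neurons, with median levels of 0.179 and 0.147. The Gi-coupled *htr1fa* and *htr1d* were in 3.23% and 2.59%, with levels from 0.108 to 0.290 and from 0.0776 to 0.175 over the 11 batches. *htr2aa*, for the Gq-coupled 2A receptor, was in 4.42%, and the channel subunit gene *htr3a* in 2.82% of neurons, but *htr3a* was also in 2.41% of microglia and erythrocytes.

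Among the dopamine receptor genes the split at 1% of neurons, without thinning, followed the coupling. All 7 Gi-coupled genes of the D2 type were in at least 1% of neurons and none of the 4 Gs-coupled genes of the D1 type, which reached 0.289% at most. After thinning, *drd4-rs*, *drd2l* and *drd4a* of the D2 type fell below 1% (0.722%, 0.591% and 0.439%). The highest D1-type gene was then at 0.12%. *drd4b* was in 5.72% of neurons (lowest 0.0311, median 0.0772, highest 0.515) and *drd2b* in 5.12% (lowest 0.0994, median 0.329, highest 0.606). *drd2a* and *drd3* were in 2.55% and 2.39%, with medians of 0.122 and 0.0794. Relative to its mean, *drd4b* varied more between batches than *drd2b* (0.156 ± 0.166 and 0.335 ± 0.183, mean ± SD, n = 11).

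Of the adrenergic genes, the Gq-coupled α1 type was the most frequent in neurons. *adra1ab* was in 5.73% (lowest 0.0164, median 0.0897, highest 0.589) and *adra1aa* in 4.43% (lowest 0.0289, median 0.126, highest 0.524). Of the 5 Gi-coupled α2 genes 3 reached 1%, and none of the 5 Gs-coupled β genes did, the highest at 0.599%.

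The levels in neurons depended on the set of batches. In a fit with age, added after the values were seen, 12 of the 50 members tested differed between batches 10 to 12 and batches 1 to 8 (edgeR quasi-likelihood test, adjusted p under 0.05), and 29.3% of all 18099 genes did. The members were 11 of higher level in batches 10 to 12 (14.3% of all genes) and 1 of lower level (14.9%). *htr3a* lay between 0.0111 and 0.0438 in batches 1 to 8 and between 0.204 and 0.259 in batches 10 to 12, a log2 difference of 2.72 (SE 0.27). *drd4b* lay between 0.0311 and 0.134 against 0.336 to 0.515 (log2 difference 2.11, SE 0.34). These 2 members prompted the comparison and are given as a description. *htr1aa* was the member of lower level, at 0.302 to 1.39 in batches 1 to 8 and 0.286 to 0.307 in batches 10 to 12 (log2 difference -1.69, SE 0.46, edgeR adjusted p = 0.0119). Sequencer, chemistry lot, dissection day and depth cannot be told apart in this split.

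GABAergic and glutamatergic neurons, the main inhibitory and excitatory classes of the tectum, were compared within the 11 batches. Only 31 of the 77 members passed the filter on low counts, and 17 of these differed at an edgeR adjusted p under 0.05, against 21% of all 13294 genes tested. Of these, 14 were higher in GABAergic neurons (11.3% of all genes) and 3 lower (9.67% of all genes). The median log2 difference of the 31 members was 0.33, against -0.01 for all genes. The members' share of higher calls lay above that of all genes, and their share of lower calls close to it.

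The largest differences were in 2 nicotinic α subunit genes. *chrna2b* had levels of 0 to 0.481 in GABAergic neurons (median 0.305) and 0 to 0.214 in glutamatergic neurons (median 0.0626). It was higher in GABAergic neurons in 9 of 11 batches, 4.91-fold in the fit (log2 difference 2.30, SE 0.18, edgeR adjusted p = 1.35e-10). *chrna6* had levels of 0.143 to 0.679 (median 0.436) against 0 to 0.381 (median 0.109). It was higher in 10 of 11 batches, 4.11-fold in the fit (log2 difference 2.04, SE 0.16, edgeR adjusted p = 8.51e-11). Both ranges overlapped between the classes, with most GABAergic batches above most glutamatergic ones. The β subunit genes *chrnb5a* and *chrnb3a* were also higher in GABAergic neurons, by 1.02 (SE 0.19) and 0.60 (SE 0.16) on the log2 scale. *chrnb2*, the most frequent nicotinic gene, gave 0.06 (edgeR adjusted p = 0.743), and *chrna5* did not pass either.

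**Figure D2:**
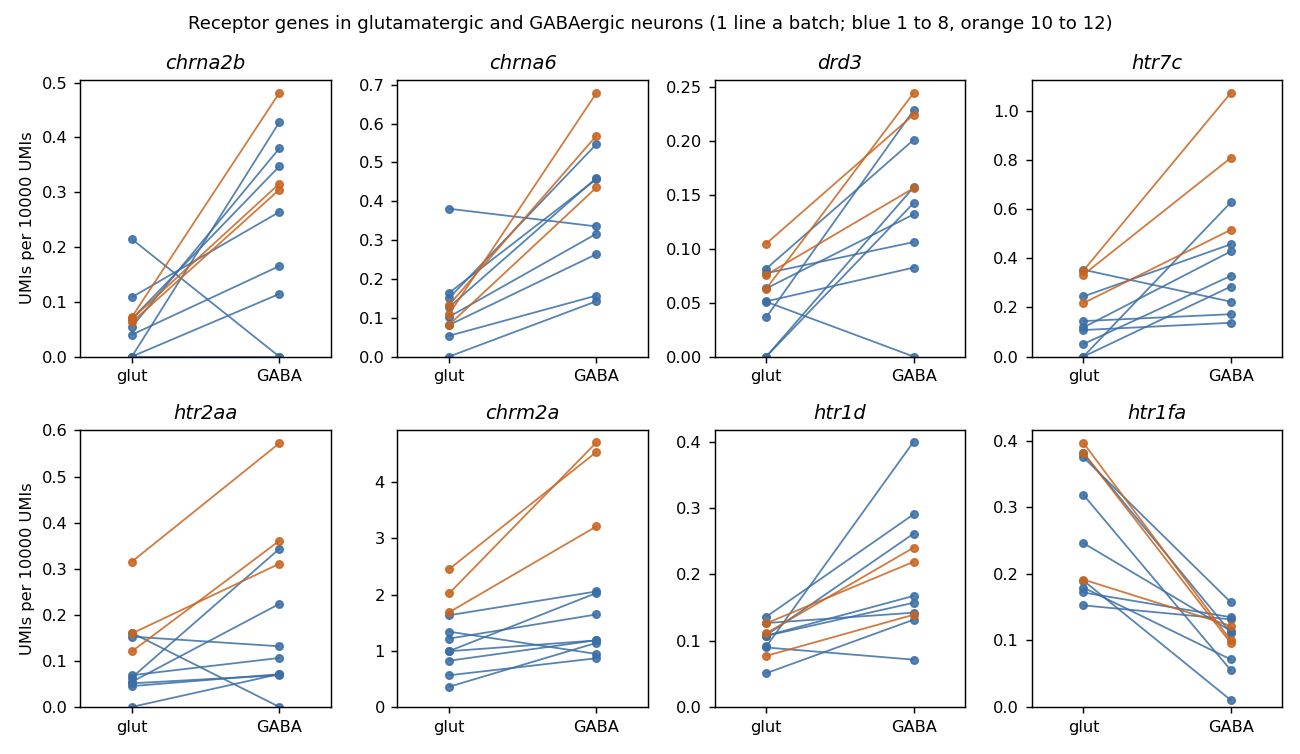
UMIs per 10000 UMIs of 8 members in glutamatergic (left) and GABAergic (right) neurons, with 1 line joining the 2 classes of a batch. Lines of *chrna2b*, *chrna6*, *drd3*, *htr7c*, *htr2aa*, *chrm2a* and *htr1d* mostly rise, and all 11 lines of *htr1fa* fall.

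The muscarinic *chrm2a* was higher in GABAergic neurons, from 0.867 to 4.71 (median 1.65) against 0.359 to 2.45 (median 1.22). The fold was 1.64, with 10 of 11 batches in that direction (log2 difference 0.71, SE 0.12, edgeR adjusted p = 2.44e-05). *chrm4a* was higher by 0.41 (SE 0.11, edgeR adjusted p = 0.00803) in 7 of 11 batches. *chrm3a*, the Gq-coupled gene, gave 0.35 and missed the threshold (edgeR adjusted p = 0.0592).

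Serotonin receptor genes moved in opposite directions. *htr7c* rose from 0 to 0.354 in glutamatergic neurons (median 0.145) to 0.138 to 1.07 in GABAergic neurons (median 0.429), 2.33-fold, with 10 of 11 batches in that direction (edgeR adjusted p = 8.05e-07). *htr2aa* (2.12-fold) and *htr1d* (1.92-fold) were higher in 9 and 10 of 11 batches, and *htr1aa* was 1.31-fold higher in 10. *htr1fa* went the other way in 11 of 11 batches, with 0.0102 to 0.157 in GABAergic neurons (median 0.112) and 0.153 to 0.397 in glutamatergic neurons (median 0.246). It was 2.76-fold lower in GABAergic neurons (log2 difference -1.46, SE 0.18, edgeR adjusted p = 3.48e-07), and the ranges of the 2 classes met only at their ends. *htr1fa* and *htr1d*, which encode receptors of the same Gi-coupled group, thus differed between the classes in opposite directions.

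Among the dopamine receptor genes only *drd3* differed. Its level was 0 to 0.245 in GABAergic neurons (median 0.156) and 0 to 0.105 in glutamatergic neurons (median 0.0630), 2.38-fold higher and in that direction in 10 of 11 batches (log2 difference 1.25, SE 0.18, edgeR adjusted p = 3.27e-06). *drd2b* and *drd4b* were tested and not called. Of the adrenergic genes *adra2da*, a Gi-coupled α2 gene, was 2.28-fold higher in 10 of 11 batches, and the α1 genes *adra1aa* and *adra1d* were 1.54-fold higher each, both in 8 of 11 batches. *adra1ab* and *adra2c* were 1.48-fold and 1.46-fold lower in the fit, but *adra1ab* was lower in 4 of 11 batches alone, with higher values in 6.

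The calls of *chrna2b*, *chrna6*, *chrnb5a*, *drd3*, *adra2da* and *htr1fa* held under every alternative in which they were tested, but batches 1 to 8 alone called 3 members, *chrna2b*, *chrna6* and *htr1fa*, and not *chrm2a*, *chrm4a*, *htr7c*, *htr1aa* or *htr1d*, with the other 9 not tested there. Leaving out 1 batch ended those of *adra1ab* (batch 10 or 11), *adra1d* (5, 10 or 12), *adra2c* (4), *chrm4a* (10), *chrnb3a* (11) and *htr1aa* (12), with edgeR adjusted p of 0.0539 to 0.148. DESeq2 did not call *adra1ab*, *adra1d*, *adra2c* or *chrm4a*. Without the replicate block *chrm2a*, *chrm4a*, *chrnb3a*, *htr1aa*, *htr2aa* and *adra1aa* were tested and not called.

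In the list of genes that handle these transmitters, 8 were tested, of which *tph1a* and *mao* were higher in GABAergic neurons (log2 differences 1.76 and 0.63) and *tph1b* and *slc5a7a* lower (-0.61 and -0.57). *tph1a* and *tph1b* make serotonin, *mao* breaks monoamines down and *slc5a7a* takes up choline. Of 16 tested regulators of G protein signalling and receptor desensitization, 4 were higher, *rgs16* (1.85), *rgs5a* (1.45), *rgs5b* (1.09) and *rgs8* (0.65), and *grk5* was lower (-0.74). Among 13 effectors, the adenylyl cyclase genes *adcy2a* and *adcy2b* were lower (-1.04 and -1.05), and *adcy8*, *adcy1a* and *adcy6a* higher (0.39, 0.33 and 0.30). The paralogous potassium channel genes *kcnj3b* and *kcnj3a* split, at 0.50 and -0.44. Of 14 G protein subunit genes only *gnai1* differed, at 0.47, and of 4 tested genes for nicotinic receptor assembly and modulation *lypd6* and *lypd6b* were lower (-0.59 and -0.67).

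Cholinergic neurons were compared with glutamatergic and GABAergic neurons together, in 9 batches. Of 30 members tested 3 differed (2.64% of 13510 genes did). *chrm3a* was higher in 7 of 9 batches, with 0.389 to 2.59 (median 1.07) against 0.402 to 1.11 (median 0.714), a log2 difference of 0.47 (SE 0.11, edgeR adjusted p = 0.00174). *htr1fa* was higher by 0.55 in 7 of 9 batches (edgeR adjusted p = 0.0441), and *htr2cl1* was lower in 7 of 9 (log2 difference -0.43, edgeR adjusted p = 0.0284). The high-affinity choline uptake gene *slc5a7a*, which was not used to assign the class, rose by 3.20 on the log2 scale, and of 17 tested regulators *rgs11* rose by 1.56 while *rgs8* and *rgs16* were lower (-0.60 and -0.51). DESeq2 called neither *chrm3a* nor *htr2cl1* (DESeq2 adjusted p = 0.107 and 0.445) and gave *htr1fa* no adjusted p. In the non-neuronal classes *chata* was found in 0.513% to 3.73% of barcodes against 3.72% of neurons, so its UMIs were not confined to neurons. Whether these UMIs came from other cells, and their part in these values, was not tested. The call of *chrm3a* was lost without batch 10 (edgeR adjusted p = 0.248), that of *htr2cl1* without batch 11 or 12 (0.0709 and 0.728), and that of *htr1fa* without any 1 of batches 1, 3, 5, 8, 10 and 12 (0.052 to 0.399). Batches 1 to 8 alone did not call *chrm3a* (edgeR adjusted p = 0.897) or *htr2cl1* (0.985), and batches 10 to 12 alone did not call *htr1fa* (0.746).

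Radial glia line the tectal ventricle, and their processes span its layers. Against neurons of the same 7 batches, 33 members were tested and 21 differed (48.7% of 15086 genes), of which 4 were higher (21.3% of all genes) and 17 lower (27.4% of all genes). The median log2 difference was -1.14 for these 33 members and -0.17 for all genes. 3 of the higher 4 were adrenergic receptor genes.

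*adra1bb*, which encodes a Gq-coupled α1B receptor, was close to absent from neurons, with levels of 0 to 0.0384 and a median of 0.0141. In radial glia it had 0.515 in batch 5, 0 in batch 6, 0.615 in batch 7, 0.671 in batch 8, 0.751 in batch 10 and 1.14 in both batches 11 and 12. It was thus higher in 6 of 7 batches, in which 9.90% to 28.9% of radial glia had a UMI, and 48.6-fold higher in the fit (log2 difference 5.60, SE 0.33, edgeR adjusted p = 4e-21). Batch 6 held 38 radial glia, as did batch 12, and no UMI of *adra1bb* was counted in batch 6 in either class.

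*adra1ab*, for the α1A receptor, was higher in radial glia in 7 of 7 batches, from 0.351 to 1.55 (median 0.939) against 0.0524 to 0.589 in neurons (median 0.0932). The fold was 5.06 (log2 difference 2.34, SE 0.29, edgeR adjusted p = 8.19e-10). *adrb2a*, for the Gs-coupled β2 receptor, ranged from 0.150 to 0.718 (median 0.273) against 0.0212 to 0.0658 (median 0.0333), without overlap, a fold of 9.61 (log2 difference 3.26, SE 0.33, edgeR adjusted p = 1.99e-12). Since *adrb2a* was higher still in microglia, microglial markers were counted in both classes. The 12 markers summed to 0.269 to 2.13 UMIs per 10000 in radial glia and to 0.156 to 1.89 in neurons. The 6 microglial genes not used to assign the class summed to 0.439 to 1.65 and to 0.322 to 0.835. Single genes went both ways. *mpeg1.1* was in 0.0736% of radial glia and 0.215% of neurons, *lgals9l1* in 0.589% and 0.419%, and *slc7a7* in 10.7% and 2.10%. The part of microglial RNA in the level of *adrb2a* was not tested. The calls of *adra1bb*, *adra1ab* and *adrb2a* held under every alternative tried.

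The fourth higher member was *htr3a* (log2 difference 1.01, SE 0.38, edgeR adjusted p = 0.0257), in 6 of 7 batches. It gave no such difference in batches 10 to 12 alone, and its call was lost without batch 5, 8 or 10 (edgeR adjusted p 0.0807 to 0.115). DESeq2 did not call *htr3a*.

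**Figure D3:**
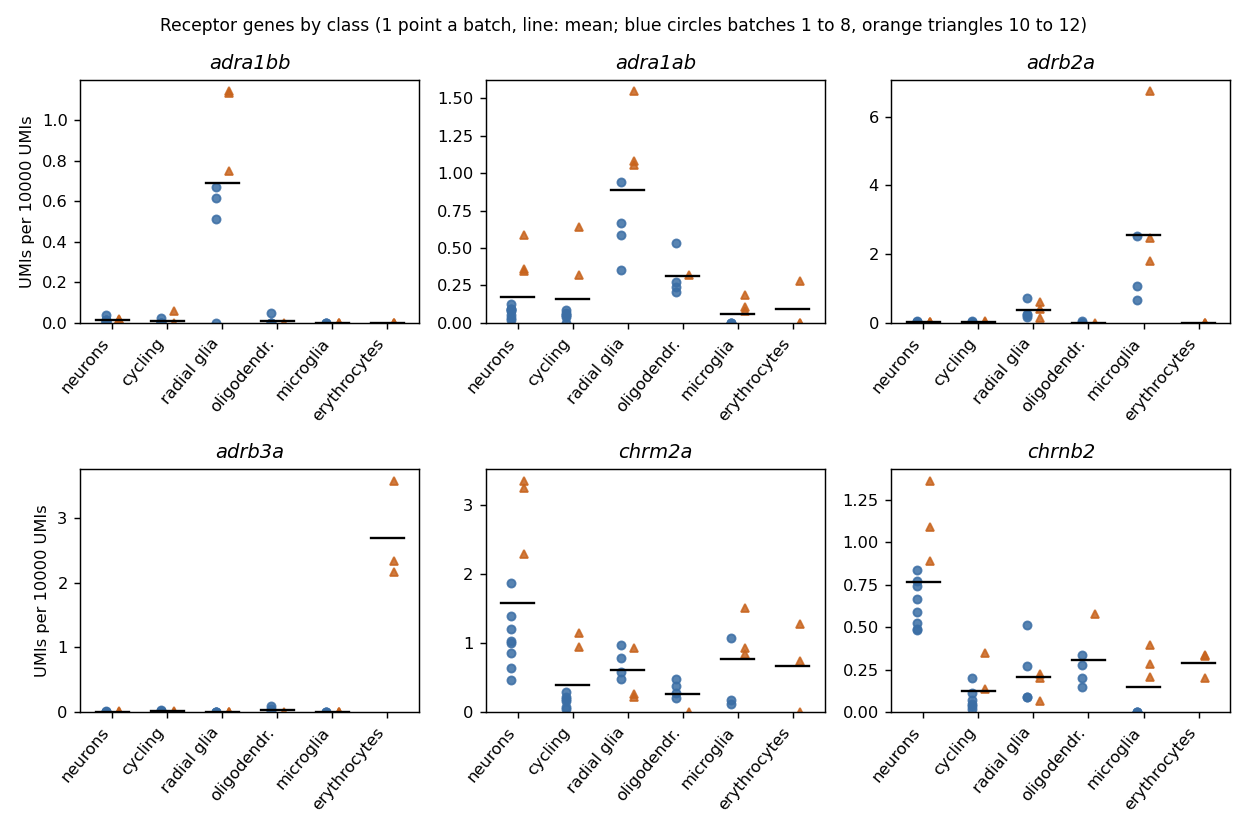
UMIs per 10000 UMIs of *adra1bb*, *adra1ab*, *adrb2a*, *adrb3a*, *chrm2a* and *chrnb2* by class, with 1 point a batch and a line at the mean over batches. The mean of *adra1bb* and *adra1ab* is highest in radial glia, that of *adrb2a* in microglia and that of *adrb3a* in erythrocytes, while *chrm2a* and *chrnb2* have their highest mean in neurons.

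The 17 members lower in radial glia came from all 5 families. *chrnb3a* had 4 UMIs in all radial glia and was 17.6-fold lower (log2 difference -4.14, SE 0.63, edgeR adjusted p = 1.96e-07), with 0 to 0.0164 against 0.119 to 0.183. *chrna6* was 5.95-fold lower, *chrna5* 4.26-fold and *chrnb2* 4.13-fold. *chrnb3a*, *chrna5* and *htr1aa* (3.86-fold lower) had ranges in radial glia and neurons that did not overlap. Overlap of ranges was worked out for the members alone, and its share over all genes is not known. The muscarinic *chrm2a* and *chrm3a* were 2.83-fold and 2.76-fold lower, the serotonin receptor genes *htr1fa*, *htr2aa*, *htr7c* and *htr2cl1* 2.92-fold to 4.16-fold, and the dopamine receptor genes *drd2b* and *drd4b* 3.02-fold and 2.84-fold. *adra2c* (4.82-fold) and *adra2a* (3.07-fold) were the lower adrenergic genes, so Gi-coupled α2 genes were lower where the Gq-coupled α1 genes *adra1ab* and *adra1bb* were higher. Leaving out 1 batch ended the calls of *adra2a* (5, 7, 11 or 12), *chrna2b* (8), *drd4b* (8) and *htr4* (5, 8 or 11), with edgeR adjusted p of 0.0517 to 0.127. Of the 17 lower members, DESeq2 did not call *adra2a*. Batches 1 to 8 alone did not call *chrm2a* (edgeR adjusted p = 0.0899), *htr7c* (0.0738), *drd2b* (0.126), *htr2aa* (0.0759), *htr4* (0.165) or *adra2a* (0.231), and batches 10 to 12 alone did not call *drd4b* (0.132), *adra2c* (0.0946), *chrna2b* (0.312) or *adra2a* (0.08).

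Of the genes for enzymes that degrade monoamines, *mao* rose by 2.94 (SE 0.27) and *comtb* by 2.87 (SE 0.47) on the log2 scale in radial glia, while *comta* gave -0.24 (edgeR adjusted p = 0.592), among 13 tested genes of transmitter handling of which 6 others were lower. *plcb3*, a phospholipase C gene downstream of Gq, rose by 3.19 (SE 0.40), and 11 of 16 tested effectors were lower. *gnai2a*, an inhibitory G protein gene, rose by 2.43 (SE 0.25) while *gnao1b* was lower (log2 difference -2.29, SE 0.31). The regulator *rgs12b* rose by 3.54 and *rgs16* was lower (log2 difference -3.21). All 4 tested genes for nicotinic receptor assembly and modulation were lower.

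In the oligodendrocyte lineage class, 21 members were tested in 5 batches and 12 differed (35.4% of 11418 genes), all of them lower than in neurons (20.6% of all genes). *htr1aa* was 12.5-fold lower, with levels of 0.0758, 0, 0.0478, 0.102 and 0.0641 in batches 3, 4, 5, 8 and 12 against 0.286 to 1.11 in neurons (log2 difference -3.65, SE 0.58, edgeR adjusted p = 1.82e-06). *chrm3a* was 9.71-fold lower, with 0.0758, 0.0551, 0.143, 0 and 0.0641 in the same batches against 0.327 to 1.15 (log2 difference -3.28, SE 0.49, edgeR adjusted p = 6.18e-07). *chrm2a* was 5.36-fold lower, with 0.379, 0.275, 0.478, 0.204 and 0 against 0.639 to 3.36. The groups did not overlap for these 3 members, and overlap was not counted over all genes. The others were *chrna2b*, *chrna6*, *adra2a*, *chrm4a*, *htr4*, *htr2cl1*, *chrna5*, *htr7c* and *chrnb2*, with folds from 2.66 for *chrnb2* to 12.4 for *chrna2b*, and *chrna2b* had 1 UMI in the class. The calls of *adra2a* (batch 3 or 12), *chrna2b* and *chrna5* (5), *htr4* (4, 5 or 12) and *htr7c* (5 or 8) were lost when those batches were left out, with edgeR adjusted p of 0.0507 to 0.248. DESeq2 did not call *adra2a*, *htr4* or *htr7c*. In the same fit *plcb3* and *gnai2a* rose by 2.76 and 2.2 on the log2 scale, in lists where 7 of 12 effectors and 6 of 13 G protein subunit genes were lower.

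Blood-borne and immune cells were added as comparisons after 2 β receptor genes were seen to be high in them. In microglia, 18 members were tested in 6 batches and 12 differed, 11 of them lower (52.2% of 9214 genes differed, 22.7% higher and 29.5% lower). The higher one was *adrb2a*, with 1.07, 2.54, 0.674, 1.79, 6.74 and 2.48 in batches 1, 2, 8, 10, 11 and 12 against 0.0104 to 0.0401 in neurons. It was found in 12.9% to 72.7% of microglia and was 88.6-fold higher in the fit (log2 difference 6.47, SE 0.48), with no overlap in 6 batches. As its level prompted the comparison, it is given as a description, and so is *adrb3a* below. *chrna6* had no UMI in microglia.

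In erythrocytes, 54 members were tested in 3 batches and 5 differed, 1 higher and 4 lower (5.86% of 18947 genes, 3.1% higher and 2.76% lower). *adrb3a*, for a β3 receptor that in fish is known from red blood cells, had 2.33, 2.17 and 3.57 in batches 10, 11 and 12 against 0.0103, 0.0111 and 0.0132 in neurons. It was in 31.7%, 58.1% and 56.7% of erythrocytes (log2 difference 8.21, SE 0.76), and no UMI of *adrb3a* was counted in microglia. All 3 batches were far above neurons. Microglia and erythrocytes, the gauge of free RNA, thus each held 1 β receptor gene at a higher level than neurons, and 72.7% of them had a UMI of some member against 74.0% of neurons. These 2 shares are not matched for depth, with medians of 2998.5 UMIs in microglia and erythrocytes and 2180.5 in neurons. The first share also includes *adrb2a* and *adrb3a*, found in 22.7% and 20.9% of microglia and erythrocytes together. The other 4 calls, of *chrm3a*, *htr2cl1*, *htr4* and *htr7c*, were lower, and those of *htr2cl1* and *htr7c* were lost without batch 11 or 12 and that of *htr4* without batch 10, 11 or 12 (edgeR adjusted p 0.0663 to 0.499).

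Cycling progenitors were compared with neurons in 8 batches, also after values were seen. Of 30 members tested 17 differed (54.6% of 14032 genes), 16 of them lower (27.6% of all genes) and *htr2b*, a Gq-coupled 2B receptor gene, higher (27% of all genes) by 1.86 on the log2 scale (SE 0.61, edgeR adjusted p = 0.0142). *chrm3a*, *chrnb2*, *htr1aa*, *htr1d* and *htr2cl1* did not overlap with neurons. How many of all genes did so was not counted. Batches 10 and 12 alone did not call *htr2b* (edgeR adjusted p = 0.171), *chrna5* (0.85), *chrnb3a* (0.313), *adra1aa* (0.604), *htr1d* (0.193), *htr1fa* (0.237) or *htr4* (0.151), and leaving out any batch but 10 also ended the call of *adra1aa* (0.0653 to 0.102).

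*chrm4a* was not called in this comparison (log2 difference 0.13, edgeR adjusted p = 0.837), and the batches went opposite ways. In batches 1, 2, 4, 5, 6 and 8 its level in cycling progenitors was 0.0256, 0.129, 0.0853, 0.0651, 0.0464 and 0.204, each below the neurons of its batch (0.286, 0.458, 0.324, 0.280, 0.178 and 0.493). In batches 10 and 12 it was 9.37 and 3.81, above neurons with 1.19 and 1.04. These values rest on 1555 UMIs in 36.4% of 503 cells in batch 10 and on 46.2% of 52 cells in batch 12. The class difference itself differed between the 2 sets of batches by 3.62 on the log2 scale (SE 0.42), which is a description since these values prompted the comparison. That of *chrna5* differed too (2.22, edgeR adjusted p = 0.0192), and 2 of 30 members against 5.93% of all genes did so (2.96% upwards and 2.96% downwards).

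In radial glia *chrm4a* had 0.177, 0, 0.923 and 0.213 in batches 5 to 8 and 8.71, 1.46 and 1.08 in batches 10, 11 and 12. Batch 10 was high in radial glia as in cycling progenitors, from 116 UMIs in 15.6% of 45 cells. That class difference also differed between the sets, by 1.85, and *chrm4a* was the only 1 of 33 members to do so (0.325% of all genes).

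**Figure D4:**
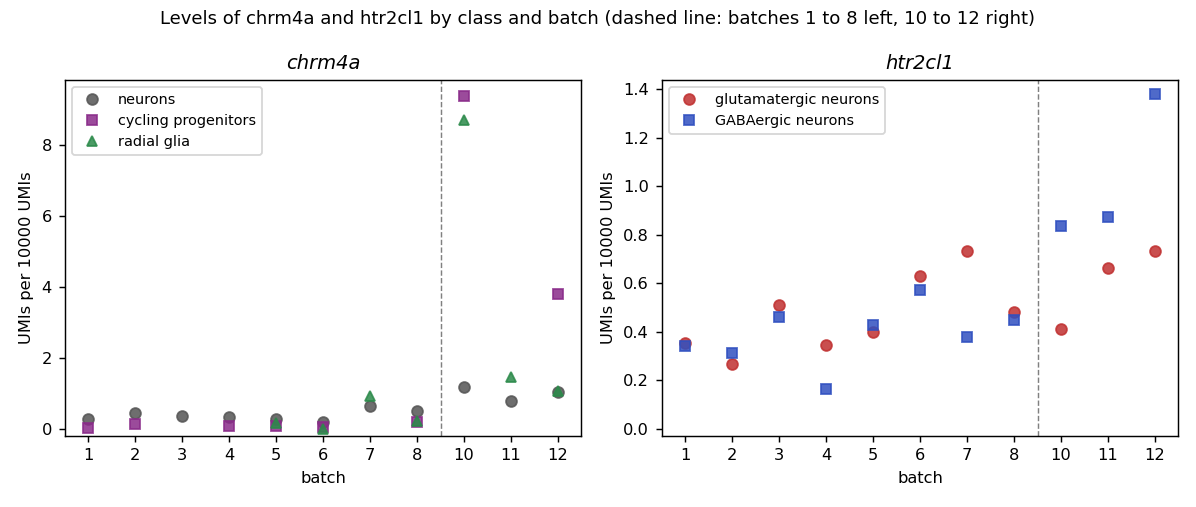
UMIs per 10000 UMIs by batch of *chrm4a* in neurons, cycling progenitors and radial glia and of *htr2cl1* in glutamatergic and GABAergic neurons, with a dashed line between batches 1 to 8 and batches 10 to 12. *chrm4a* in cycling progenitors lies below neurons left of the line and above them right of it, and *htr2cl1* in GABAergic neurons is above glutamatergic neurons right of it.

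*htr2cl1* was the member whose difference between GABAergic and glutamatergic neurons depended on the set of batches (1 of 31 members, 0.85% of all genes). GABAergic neurons of batches 10, 11 and 12 had 0.836, 0.871 and 1.38 against 0.413, 0.662 and 0.732 in glutamatergic neurons. In batches 1 to 8 they had 0.165 to 0.570 against 0.268 to 0.734, so the ranges overlapped there. The 2 sets differed in this class difference by 1.17 on the log2 scale (SE 0.21, edgeR adjusted p = 0.00172), and the pooled difference of 0.33 was not called (edgeR adjusted p = 0.133).

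Age made no difference that passed the test. Of 50 members tested in neurons, none differed between 7 dpf and 6 dpf at an edgeR adjusted p under 0.05 (0.0111% of 18099 genes did, 0.00553% higher and 0.00553% lower), DESeq2 called none, and 4 had an unadjusted edgeR p under 0.05: *chrm3a* (higher at 7 dpf by 0.57 on the log2 scale), *drd6b*, *drd4-rs* and *drd2b*. No gene of the 5 lists of transmitter handling, receptor assembly, G proteins, effectors and regulators passed either. No member had ranges at 6 and 7 dpf that did not overlap, and this was not counted over all genes. The difference between GABAergic and glutamatergic neurons did not change with age for any of 31 members (0% of all genes, none with an unadjusted edgeR p under 0.05, DESeq2 not run). With 4 batches against 7, small changes over this day could be missed.

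Within neurons, levels were also set beside marker genes of tectal neuron types. These pairs were chosen after their values were seen and are given as a description with no test. Neurons with *npy*, a neuropeptide gene, had a *chrna6* level of 0.827 against 0.251 in those without it, and higher in 7 of 8 batches. Neurons with *npb* had a *chrm2a* level of 6.20 against 2.28 (6 of 8 batches), and those with *uts1* had a *drd2b* level of 0.918 against 0.382 (5 of 5 batches). *chrna2a*, a nicotinic α gene in 1.21% of neurons, reached 0.158 in neurons with *atf5b* and 0.0403 in the others (higher in 7 of 11 batches). In the opposite direction, neurons with *onecut1* had 0.139 of *htr1aa* against 0.400, lower in 10 of 10 batches, and neurons with *zic2a* had 0.0628 of *chrna2b* against 0.182, lower in 11 of 11. In each pair the marker splits the neurons by a few UMIs, so barcodes without the marker can still belong to the type. The study names *npy* and *npb* as inhibitory markers and *onecut1* and *zic2a* as excitatory ones. Their partners here, *chrna6*, *chrm2a*, *htr1aa* and *chrna2b*, were also higher in GABAergic than in glutamatergic neurons. The pairs were not compared within a transmitter class, and the part of that class in them was not tested.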

How the data were processed

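The study's authors deposited UMI counts per gene and barcode for 11 batches, as 12 matrices, with 2 for batch 11 and 1 for each other batch. These counts are raw and not normalized, and the submitters' processing notes name Cell Ranger 7.1.0 and GRCz11. The kept barcodes had between 600 and 4000 genes, no more than 7500 UMIs and a mitochondrial share of 10% or less. Batches held 5073733 to 88294858 UMIs, and kept barcodes a median of 1478.5 to 2874. Batches shared at most 35 barcodes. Counting error alone allows a gene with no UMI a share of up to 0.00748% of neurons (3 counts).

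Classes came from marker limits set after marker distributions had been seen, and cells were not clustered. The study excluded cells by the habenular genes *gng8* and *kiss1* and the lens gene *crygm2d13*. Here barcodes with a UMI of these genes were kept, 857 of them neurons (2.14%). Cells of the torus longitudinalis, which the study left out of its tectal analyses, were not separated from the other neurons. No doublet caller was run: barcodes that met 2 non-neuronal limits or carried markers of both main transmitters were left out of those classes. UMIs were summed by class and batch (at least 20 barcodes) and tested with edgeR 4.0.16 (R 4.3.3; TMM, filterByExpr, quasi-likelihood, batch as a term, and sequencer as a term in the age comparison), with Benjamini-Hochberg adjustment over all genes and a threshold of 0.05. Batches are pooled larvae. In the class comparisons the batch term takes up differences in level between batches, so p-values measure the spread of the class difference over batches. In the comparisons of ages and of the 2 sets of batches in neurons they measure the spread between batches. Classes of a batch come from the same larvae, which is the source of the pairing, and the batch term is the replicate block. Batch 8 has a label line that names 6 dpf beside an age of 7 dpf, and 7 dpf was used. On simulated counts of the GABAergic and glutamatergic sums (13294 genes), 196 of 200 changed genes were recovered, 95.5% at 2-fold and 100% at 4-fold, with 27 false calls. That share of false calls is above the threshold of 0.05. The simulated counts carried no difference in level between batches, and the changed genes were drawn from all tested genes. The recovery therefore cannot be carried over to the members, many of which have few UMIs. Shares were also computed after thinning to 1000 UMIs, and 3375 shallower neurons and 6 microglia and erythrocytes were left out of these.

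Alternatives were RLE normalization, DESeq2 1.42.0, no filter on low counts, other class limits, at most 5000 UMIs, no replicate block and leaving out each batch. Leaving out the habenular and lens barcodes was a further alternative. The 2 sets of batches alone and the comparisons with cycling progenitors, microglia and erythrocytes were chosen after seeing the data. The named genes were called members by size of the log2 difference (up to 20), the 20 members of highest share in neurons, the muscle subunits, and 9 others (*chrna6*, *chrna2b*, *chrm2a*, *chrm3a*, *htr2cl1*, *htr4*, *htr7c*, *drd3* and *adrb3a*). Genes named outside this rule were chosen after their values were seen. The members and lists were chosen with earlier results of these data known. Sums, shares and plots were made in Python 3.11.15 (pandas 2.3.3, numpy 2.4.6, matplotlib 3.10.9, scipy 1.17.1). Sequences and coordinates were not analysed here.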

Additional observations from a re-analysis of the deposited data

Results flagged for a closer look

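In neurons, the batches of each age were searched for a value far from the rest, in 56 groups of 28 named members, and 3 were found, where chance gives about 1 in 20 groups. *adra1ab* in batch 10 had 0.589 UMIs per 10000, against 0.0524 to 0.0932 in the other batches at 6 dpf. *htr3a* in batch 10 had 0.220, against 0.0111 to 0.0438 in the other batches at 6 dpf. *htr1fa* in batch 8 had 0.122, the lowest at 7 dpf, against 0.226 to 0.278 in the others. Batch 10 is the only batch at 6 dpf among batches 10 to 12, and *adra1ab* and *htr3a* were also higher in batches 11 and 12 than in batches 1 to 8. The cause was not tested.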

How the results depend on the processing

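The count of 17 members that differed between GABAergic and glutamatergic neurons was 28 without the filter on low counts, 5 without the replicate block, 3 in batches 1 to 8 alone and 27 in batches 10 to 12 alone, and 12 to 19 with each batch left out. In batches 1 to 8 alone 8 of the 17 passed the filter on low counts, which lowers that count. For these and the following counts, the share of all genes called under each alternative was not worked out. Changes in a count can therefore not be set against those of all genes. For radial glia the count of 21 was 15 to 24 with each batch left out. *htr3a*, higher in radial glia in the full comparison, turned to a log2 difference of -0.00287 in batches 10 to 12 alone, and the cause was not tested. The 12 members lower in the oligodendrocyte lineage were 7 at a ceiling of 5000 UMIs, 4 with 1 class marker more and 7 without the replicate block, and 8 to 14 with each batch left out. The 3 members called in cholinergic neurons were 0 by DESeq2, 0 without the replicate block, 7 when at least 2 UMIs of the transmitter genes were asked for, 1 in batches 1 to 8 alone, and 1 to 3 with each batch left out, with 1 without batch 10 and 1 without batch 12. The 12 in microglia were 21 without the filter and 9 to 16 with each batch left out. The 5 in erythrocytes were 2 to 8 with each batch left out (8 without batch 10, and 2 without batch 11 or without batch 12), and the 17 in cycling progenitors were 15 to 17. The count between ages was 0 under every alternative, by edgeR and by DESeq2. The 34 members at 1% of neurons were 22 after thinning to 1000 UMIs and 14 when at least 2 UMIs were asked for. Of the single members called, 320 of 351 values under the alternatives kept their call between GABAergic and glutamatergic neurons and 317 of 349 in radial glia. The median log2 difference of all genes was -0.17 by edgeR, -0.10 with RLE normalization and 0.24 by DESeq2 in radial glia, and -0.18, -0.11 and 0.31 in the oligodendrocyte lineage, and the cause was not tested. Members with few UMIs are limited by depth, most of all in the oligodendrocyte lineage (241 barcodes), microglia and erythrocytes.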
